A study of Mus musculus with 36 samples.

Results

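The young mouse LINE-1 families were followed in MEFs (mouse embryonic fibroblasts) in which the major satellite repeats (MSR) were targeted by dCas9. These families were taken from the repeat families of the deposited count table by name, as every entry that belongs to the LINE-1 (L1) family of the LINE class and begins with L1Md. This gave 6 of 1561 repeat families, namely L1Md_A, L1Md_T, L1Md_Gf, L1Md_F, L1Md_F2 and L1Md_F3, and all 6 passed the filter on low counts. The rule used names alone and no measured value, although it was set with earlier results of these data known.

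LINE-1 elements are retrotransposons that are copied through an RNA intermediate. A full-length copy carries a promoter at its 5′ end and encodes an RNA-binding protein (ORF1p) and a protein with endonuclease and reverse transcriptase activity (ORF2p). In the mouse the promoter is built from tandem monomers, and the type of monomer gives the subfamilies their names: A, T and Gf copies include those still able to move, whereas the F families are older and mostly degenerate. In somatic cells L1 copies are held silent by DNA methylation and by histone H3 lysine 9 methylation, the latter being also the mark of the pericentromeric heterochromatin that the MSR form.

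RNA was measured in 36 libraries, 3 replicates for each of 12 groups, from 2 MEF lines made by PiggyBac transposition and kept under hygromycin as mixed cultures rather than clones. The MSR-dCas9-Control line carried doxycycline-inducible dCas9, a Cas9 without nuclease activity, and the MSR-dCas9-Activator line inducible dCas9 fused to the VPR transcriptional activator, and both lines expressed a guide RNA to the MSR constitutively. Each line was sampled uninduced, induced (doxycycline, 10 ng/ml) and post-induction, that is 3, 6, 12 or 24 h after the drug had been withdrawn. The MSR-dCas9-Control line received doxycycline for 24 h, but the MSR-dCas9-Activator line for 6 h, so the length of exposure and the effector cannot be told apart in comparisons between the lines after induction.

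Libraries held from 35092024 to 71148411 counts on genes and repeat families together (median 54897496), of which 166513 to 472044 fell on the 6 L1Md families. The least abundant of them, L1Md_Gf, had at least 1319 counts in every library. Over all time points, normalised counts of GSAT_MM, the targeted major satellite, were 951 to 1968 in MSR-dCas9-Control libraries. They were 2234 to 4233 in uninduced MSR-dCas9-Activator libraries and 99120.4 to 2003900 in the others of that line. Replicates of a group differed widely in the latter (99120.4 to 1059660 at induction, 335754 to 2003900 at 12 h) but not in the induced MSR-dCas9-Control group (1318 to 1404). SYNREP_MM, the minor satellite repeat of the centromere, was already higher in the uninduced MSR-dCas9-Activator line (log2 fold change 2.90 ± 0.40 (SE), edgeR adjusted p = 4.13e-04). The list of 12 fibroblast markers summed to 22014 to 35396 CPM (counts per 1e+06 gene counts) in the MSR-dCas9-Control and uninduced MSR-dCas9-Activator libraries and to 12239 to 27658 CPM in the 15 induced and post-induction MSR-dCas9-Activator libraries, with Thy1 at most at 0.175 CPM throughout. The epithelial list (6 genes) summed to 0.503 to 1.92 CPM in the former 21 libraries and to 1.27 to 4.42 CPM in the latter 15, and the pluripotent and germ cell list (8 genes) to 0.505 to 1.67 and to 1.03 to 3.99 CPM. In both lists the MSR-dCas9-Activator groups at 6, 12 and 24 h lay wholly above the MSR-dCas9-Control line. The epithelial list did so at 3 h too, and already before induction (1.49 to 1.92 CPM, against at most 1.42 CPM in the MSR-dCas9-Control line). The endothelial list (5 genes) summed to at most 3.16 CPM in the former 21 libraries and to between 14.2 and 44.0 CPM in the latter 15, mainly through Pecam1 and Tek, and the haematopoietic list (6 genes) to at most 15.7 CPM in the former and to between 11.7 and 28.3 CPM in the latter. Their part in the results was not tested, and in bulk RNA fewer cells of a type and less RNA per cell cannot be told apart.

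Family counts were divided by effective library sizes computed from genes alone and brought to a common size (normalised count), and all 36 libraries entered a single edgeR quasi-likelihood fit, with p-values adjusted over 1492 families by Benjamini-Hochberg. A family was called at an adjusted p under 0.05. Its count pools all genomic copies, so it has no position, and reads from L1 transcripts cannot be told apart from reads of L1 copies inside other transcripts such as pre-mRNA introns. Families differ in total length in the genome, so levels were compared only within a family.

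Before induction the lines did not differ detectably in any of the 6 families. Of the active-type families, L1Md_A had normalised counts of 36495, 30163 and 42359 in MSR-dCas9-Control cells against 40330.5, 36396 and 48242 in MSR-dCas9-Activator cells, and the ranges overlapped. L1Md_F had 2791, 3258 and 3679 against 3393, 3126 and 4230.4, again with overlap. The log2 fold changes between the lines ran from 0.07 ± 0.12 (SE) for L1Md_F2 to 0.25 ± 0.14 for L1Md_Gf. None of the 6 was called by edgeR, 0 passed at an unadjusted p under 0.05 and 0 were called by DESeq2, where 0.067% of all families were called higher. A shift of this size lies within the spread between replicates.

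After induction L1Md_F rose the most. Its normalised counts were 2685, 3743 and 3779 in the induced MSR-dCas9-Control line and 7599.8, 4528 and 9846 in the induced MSR-dCas9-Activator line. Every induced MSR-dCas9-Activator library lay above every induced MSR-dCas9-Control library, although replicate 2 came close. The means were 3402 ± 621 and 7325 ± 2670 (SD, n = 3), and the log2 fold change was 1.09 ± 0.16 (edgeR adjusted p = 4.31e-07).

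L1Md_F3, its close namesake, also rose on induction, with 18792, 22677 and 22666 normalised counts in the MSR-dCas9-Control line and 31097, 21497 and 38028 in the MSR-dCas9-Activator line (log2 fold change 0.49 ± 0.13, edgeR adjusted p = 9.97e-04). L1Md_A rose by 0.31 ± 0.13 (edgeR adjusted p = 0.0358), from 34832, 43886 and 43572 to 47756, 40011 and 65627. In both families replicate 2 of the MSR-dCas9-Activator line fell inside the range of the MSR-dCas9-Control line, so the groups overlapped. L1Md_F2, L1Md_Gf and L1Md_T did not pass, with log2 fold changes of 0.26 ± 0.13, 0.32 ± 0.14 and 0.25 ± 0.13 and edgeR adjusted p-values of 0.0724, 0.0610 and 0.103.

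Thus 3 of 6 families were called higher and 0 lower at induction, where 25.5% of all families were called higher and 21.8% lower. The median log2 fold change was 0.32 over the 6 families and 0.00 over all families tested. This count rested on single libraries: it was 1 without replicate 3 of the induced MSR-dCas9-Activator line and 6 without replicate 2 of it or without replicate 2 of the induced MSR-dCas9-Control line. In the induced MSR-dCas9-Activator line all 6 families were lowest in replicate 2 and highest in replicate 3, the order that GSAT_MM took as well (151521, 99120.4 and 1059660 normalised counts). The shared order did not hold at 3 h after removal. There GSAT_MM was highest in replicate 3 (173007, 458497 and 862727), in which all 6 families were lowest.

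**Figure D1:**
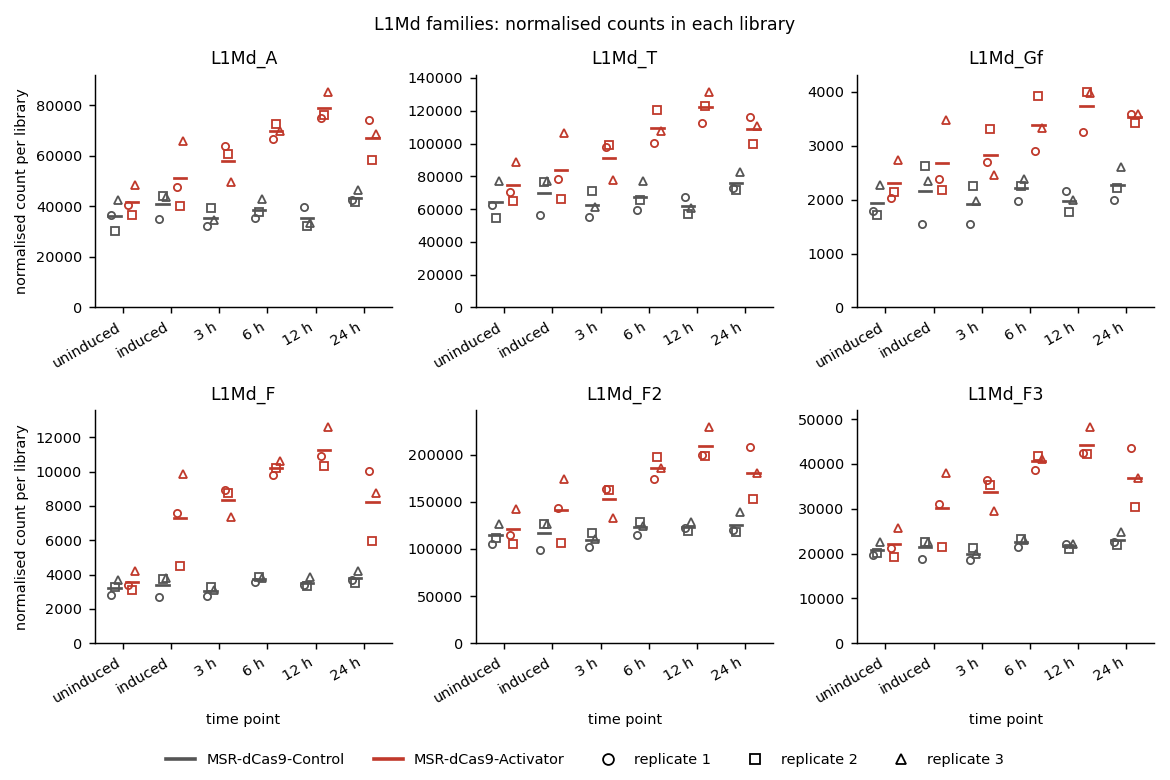
Normalised counts (y axis, from 0) of the 6 L1Md families at each time point (x axis) in every library of the MSR-dCas9-Control (grey) and MSR-dCas9-Activator (red) lines; marker shapes stand for replicates and bars for means of 3. The MSR-dCas9-Activator means were highest at 12 h in each panel, and in L1Md_F all 15 induced and post-induction MSR-dCas9-Activator libraries lay above 4230.4, the highest of the other 21.

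After doxycycline had been removed, all 6 families were higher in the MSR-dCas9-Activator line at each of the post-induction time points. At 3 h the log2 fold changes against the MSR-dCas9-Control line ran from 0.48 ± 0.13 (L1Md_F2) to 1.46 ± 0.16 (L1Md_F), with a median of 0.64. L1Md_F stood at 2767, 3303 and 3103 normalised counts in the MSR-dCas9-Control line and at 8949.9, 8763 and 7371 in the MSR-dCas9-Activator line. L1Md_A stood at 32143, 39171 and 34632 against 63926, 60696 and 49553 (log2 fold change 0.72 ± 0.13), and L1Md_F3 at 18540.3, 21167 and 19804 against 36522, 35228 and 29493 (0.77 ± 0.13). The groups did not overlap in any of the 6 families, although replicate 3 of the MSR-dCas9-Activator line was the lowest of its group in each. The share of all families without such an overlap was not counted, at this or any other time point. All 6 were called higher, where 37.9% of all families were called higher and 24.6% lower.

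At 6 h 5 of the 6 log2 fold changes were larger in value than at 3 h, that of L1Md_F being about the same, without a test between time points. L1Md_A had 35432, 37565 and 42992 normalised counts in the MSR-dCas9-Control line and 66507, 72509 and 69836 in the MSR-dCas9-Activator line (log2 fold change 0.85 ± 0.13). L1Md_T went from 59294, 65587 and 77243 to 100189, 120664 and 107608 (0.71 ± 0.13), and L1Md_F from 3544, 3885 and 3784 to 9790.0, 10219.9 and 10596 (1.45 ± 0.16). In L1Md_F the 3 MSR-dCas9-Activator libraries lay close together, unlike at induction. L1Md_F3 rose by 0.85 ± 0.13, L1Md_Gf by 0.62 ± 0.14 and L1Md_F2 by 0.60 ± 0.13. No group overlapped its counterpart, and all 6 families were called higher, where 41% of all families were called higher and 18% lower.

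The largest values came at 12 h, in every family. L1Md_A reached 75052, 76161 and 85228 normalised counts in the MSR-dCas9-Activator line against 39793, 32365 and 33348 in the MSR-dCas9-Control line, a ratio of means of 2.24 and a log2 fold change of 1.16 ± 0.13 (edgeR adjusted p = 8.22e-14). L1Md_T, whose subfamily includes many of the copies able to move in today's mice, reached 112400.0, 123004 and 131575 against 67635, 57277 and 60505 (log2 fold change 0.98 ± 0.13). L1Md_Gf, the least abundant, reached 3258, 3996 and 3967 against 2160.0, 1763 and 1987 (0.91 ± 0.14). In these 3 families, and in the F families, each MSR-dCas9-Activator library lay above each MSR-dCas9-Control library.

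Within the F families L1Md_F reached 10893, 10355 and 12579 normalised counts at 12 h against 3379.7, 3307 and 3841, a ratio of means of 3.21 (log2 fold change 1.68 ± 0.16, edgeR adjusted p = 1.93e-12). L1Md_F3 reached 42449.5, 42329 and 48149 against 22054, 21013 and 22224 (1.02 ± 0.13). L1Md_F2, the most counted of the 6, reached 199319, 198688 and 228936 against 121861, 118855 and 128848 (0.76 ± 0.13), the smallest change. The median over the 6 families was 1.00 and that over all families tested 0.45. All 6 were called higher, where 54.3% of all families were called higher and 8.71% lower, so that more than every second repeat family was called higher at this time point.

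At 24 h the fold changes were smaller in value than at 12 h, without a test between time points, and still passed. L1Md_F stood at 10064, 5947 and 8756 normalised counts in the MSR-dCas9-Activator line and at 3701, 3481 and 4205 in the MSR-dCas9-Control line (log2 fold change 1.12 ± 0.16). Replicate 2 was the lowest MSR-dCas9-Activator library in each of the 6 families, and still lay above all 3 MSR-dCas9-Control libraries of its time point. L1Md_A stood at 74107, 58403 and 68599 against 42550.3, 41573 and 46238 (0.63 ± 0.13), and L1Md_Gf at 3583, 3426 and 3579.5 against 1991, 2219.6 and 2601 (0.65 ± 0.14). The other log2 fold changes were between 0.53 (L1Md_T and L1Md_F2) and 0.68 (L1Md_F3). All 6 were called higher, where 38.8% of all families were called higher and 3.02% lower, and the count was between 4 and 6 when single libraries or replicate numbers were left out.

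**Figure D2:**
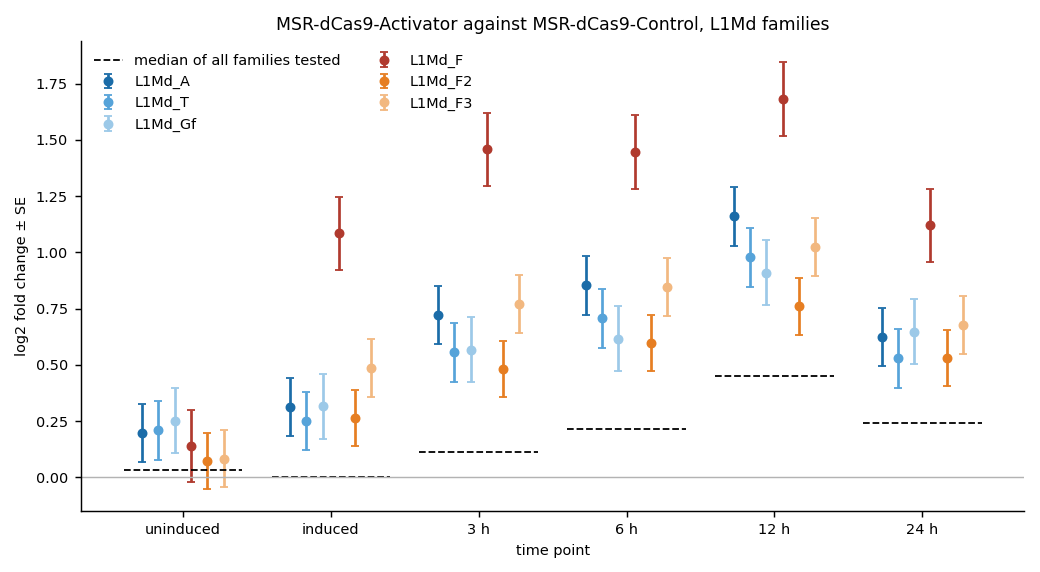
Log2 fold change ± SE (y axis) between the MSR-dCas9-Activator and MSR-dCas9-Control lines at each time point (x axis) for the 6 L1Md families (points), with the median of all 1492 families tested (dashed bars). L1Md_F was at 1.09 at induction and 1.68 at 12 h, above the other 5 at each of the 5 time points from induction on, while the 6 families lay between 0.07 and 0.25 before induction.

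The scaling of the libraries decided how much of this was counted as a rise. Scaled to the 13 mitochondrially encoded mRNAs instead of all genes, the median over the 6 families was -0.05 at induction and, in order of the post-induction time points, 0.08, 0.09, 0.35 and 0.38, and the median over all families was -0.36, -0.46, -0.48, -0.19 and -0.02. On this scale 10%, 13%, 12.4%, 19.5% and 14.7% of all families were called higher at these 5 time points and 32.3%, 44.4%, 45.9%, 31.1% and 3.63% lower. L1Md_F stayed called from induction on, with log2 fold changes of 0.73 ± 0.22, 0.89 ± 0.22, 0.75 ± 0.22, 1.04 ± 0.22 and 0.85 ± 0.22. L1Md_A was called beside it at 12 h (0.51 ± 0.22, edgeR adjusted p = 0.0444) and no other member at any time point, so that 1 of 6 was called at the other 4 time points, a share near that of all families. The families called with gene scaling but not here included members whose direction turned, namely L1Md_A at induction (-0.05), L1Md_F2 at 3 h (-0.09) and 6 h (-0.09), L1Md_T at 3 h (-0.01) and L1Md_Gf at 6 h (-0.07).

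Mitochondrial mRNAs took 1.45% to 2.56% of all gene counts in MSR-dCas9-Control libraries and 1.97% to 3.60% in the induced and post-induction MSR-dCas9-Activator libraries, and which scale reflects RNA per cell was not tested. A scaling moves the log2 fold changes of all families by about the same amount, so the position of the 6 among the other repeats hardly depends on it by construction. All 6 families lay above the median of all families at every time point, and the median of the 6 exceeded it by 0.31 at induction and by 0.55 at 12 h on the gene scale.

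**Figure D3:**
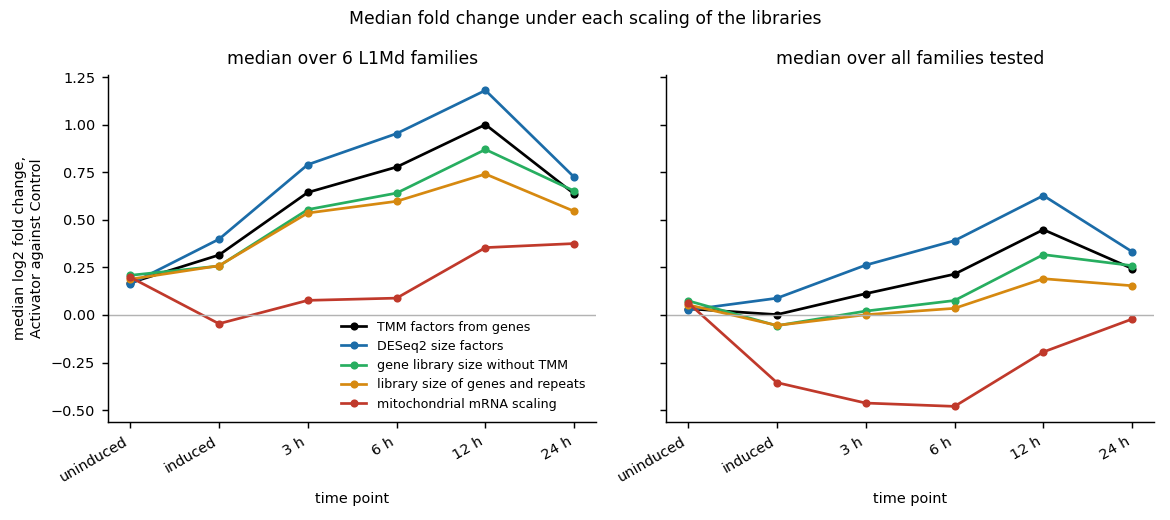
Median log2 fold change (y axis) between the MSR-dCas9-Activator and MSR-dCas9-Control lines over the 6 L1Md families (left) and over all families tested (right) at each time point (x axis) under 5 scalings of the libraries (colours). The scalings moved both medians together: at 12 h the median of the 6 was 1.00 with TMM factors from genes and 0.35 with mitochondrial mRNAs, and that of all families 0.45 and -0.19.

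Within each line the same libraries were compared over time, so these results share libraries with those between the lines. On induction L1Md_F rose in the MSR-dCas9-Activator line by 1.02 ± 0.16 (edgeR adjusted p = 1.52e-06) and L1Md_F3 by 0.45 ± 0.13 (edgeR adjusted p = 0.00243). These were 2 of 6 families, where 26.2% of all families were called higher and 22.7% lower. L1Md_A had a log2 change of 0.29 ± 0.13 and an edgeR adjusted p of 0.0525, and the others lay between 0.16 and 0.22. The count was 1 without replicate 3 of the induced MSR-dCas9-Activator line and 5 without replicate 2. With mitochondrial scaling 0 of 6 were called, with L1Md_F3 at -0.11, where 106 of 1488 families were called higher and 731 lower.

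In the MSR-dCas9-Control line doxycycline was followed by no call among the 6 families. edgeR called 0 of them, 0 passed at an unadjusted p under 0.05 and DESeq2 called 0, where 0% of all families were called higher. The difference between the lines in their response to induction was then tested directly. It passed for L1Md_F (0.95 ± 0.23, edgeR adjusted p = 0.00179), 1 of 6, where 11.9% of all families were called higher, and it was lost without replicate 3 of all groups and with mitochondrial scaling, while 2 families passed without replicate 2 of either induced group. For L1Md_F3 the difference was 0.40 ± 0.18 (edgeR adjusted p = 0.0933).

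By 24 h all 6 families were above their uninduced level in the MSR-dCas9-Activator line, where 50.2% of all families were called higher. L1Md_F had risen by 1.21 ± 0.16, L1Md_F3 by 0.74 ± 0.13, L1Md_A by 0.69 ± 0.13, L1Md_Gf by 0.63 ± 0.14, L1Md_F2 by 0.59 ± 0.13 and L1Md_T by 0.55 ± 0.13. With mitochondrial scaling 1 of 6 was called, where 284 of 1488 families were called higher. In the MSR-dCas9-Control line edgeR called 0 of 6 and DESeq2 0 of 6, where 0.067% of all families were called higher, and 1 of 6 passed at an unadjusted p under 0.05.

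Tested directly, the change from uninduced to 24 h was larger in the MSR-dCas9-Activator line for L1Md_F (0.98 ± 0.23, edgeR adjusted p = 0.00106) and L1Md_F3 (0.60 ± 0.18, edgeR adjusted p = 0.00951), 2 of 6, where 20% of all families were called higher. L1Md_F2 just missed the threshold (edgeR adjusted p = 0.0513), and the other 3 had adjusted p-values of 0.0845 to 0.230. The count was 1 without replicate 1 and 4 without replicate 2 of the 24 h MSR-dCas9-Activator group, and 0 with mitochondrial scaling.

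Between induction and 24 h after removal, 5 of 6 families rose further in the MSR-dCas9-Activator line, where 52.5% of all families were called higher. L1Md_Gf changed by 0.41 ± 0.14, L1Md_A by 0.40 ± 0.13, L1Md_T by 0.39 ± 0.13, L1Md_F2 by 0.37 ± 0.13 and L1Md_F3 by 0.30 ± 0.13. The exception was L1Md_F (0.19 ± 0.16, edgeR adjusted p = 0.313). The 5 calls rested on single libraries: 3 were left without the replicate number as a block, and 0 without replicate 2 of the induced group or without replicate 1 of the 24 h group.

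In the MSR-dCas9-Control line edgeR called 0 of 6 over the same interval, 0 passed at an unadjusted p under 0.05 and DESeq2 called 0, where 0% of all families were called higher. The difference between the lines was called for 0 of 6 by edgeR and by DESeq2, with 0 at an unadjusted p under 0.05, where 6.43% of all families were called higher. A further rise particular to the MSR-dCas9-Activator line was therefore not detected.

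In the order of the 12 groups the 5 induced and post-induction MSR-dCas9-Activator groups came first in each family, with 12 h on top, while the order of the other groups differed between families. In L1Md_F the 12 h (11276 ± 1160.3, SD) and 6 h (10202 ± 403) groups overlapped as neighbours in this order, as did the 3 h, 24 h and induced groups, and then came a gap to the 7 remaining groups, whose means lay between 3058 and 3796. L1Md_F was the only family without an overlap at that gap. In L1Md_F3 14 of the 15 induced and post-induction MSR-dCas9-Activator libraries lay above the highest of the other 21, in L1Md_A and L1Md_F2 13, in L1Md_T 12 and in L1Md_Gf 11. The libraries that fell short were replicates 1 and 2 of the induced group and replicates 1 and 3 of the 3 h group. How many of the other repeat families separate these libraries to the same degree was not counted.

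Because the families were counted in the same libraries, their proportions could be followed without any scaling. Per 100 counts of L1Md_T, L1Md_F took 4.48 to 6.35 counts (median 4.90) in the 18 MSR-dCas9-Control and 3 uninduced MSR-dCas9-Activator libraries and 5.95 to 9.85 counts (median 9.15) in the other 15. In 14 of these 15 the proportion was above the highest of the 21. The exception was replicate 2 at 24 h, with 5.95. Within the MSR-dCas9-Activator line the proportion was 4.84, 4.82 and 4.76 before induction and 9.66, 6.84 and 9.26 after it.

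L1Md_F3 and L1Md_A gained on L1Md_T too, but by less. L1Md_A took 54.2 to 61.7 counts per 100 in the 21 libraries (median 56.5) and 58.4 to 66.8 in the other 15 (median 62.0), 10 of which lay above all 21. L1Md_F3 took 29.0 to 37.2 (median 30.8) and 30.3 to 39.5 (median 36.6), with 7 above. L1Md_F2 and L1Md_Gf kept their proportion to L1Md_T within the range of the 21 in all but 1 library, which lay below it for L1Md_F2. Against these 21 the make-up of the L1Md RNA thus shifted towards L1Md_F, and to a lesser extent towards L1Md_F3 and L1Md_A, a description of counts without a test. At 12 h alone, however, L1Md_F3 took 32.6 to 36.7 counts per 100 in the MSR-dCas9-Control line and 34.4 to 37.8 in the MSR-dCas9-Activator line, with overlap. L1Md_F2 took 180 to 213 and 162 to 177 at 12 h, lower in the MSR-dCas9-Activator line without overlap.

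**Figure D4:**
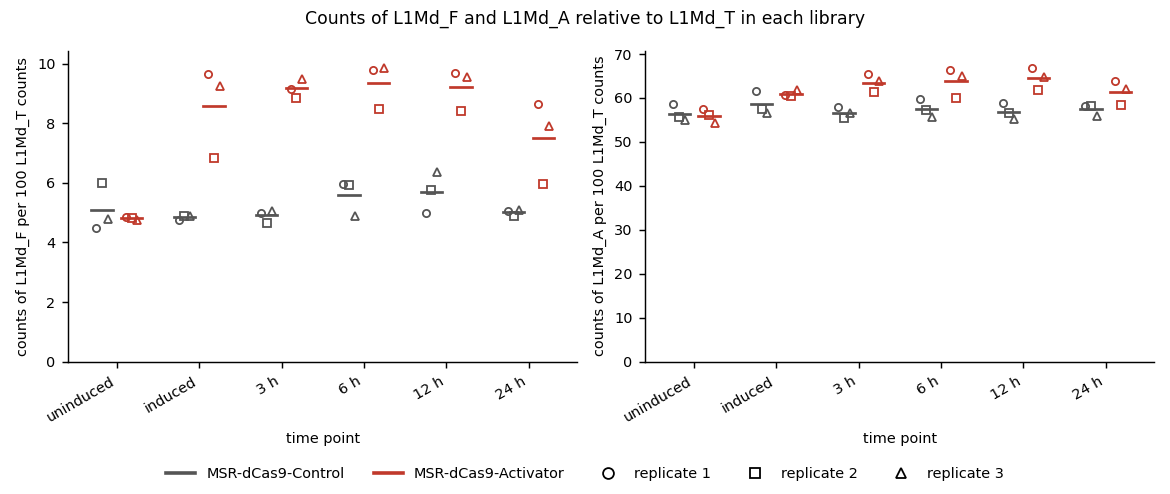
Counts of L1Md_F (left) and L1Md_A (right) per 100 counts of L1Md_T (y axis, from 0) in each library at each time point (x axis), MSR-dCas9-Control in grey and MSR-dCas9-Activator in red, with marker shapes for replicates and bars for means. L1Md_F took 4.76 to 4.84 counts per 100 in uninduced MSR-dCas9-Activator libraries and up to 9.85 at 6 h.

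The other L1 families were taken as a comparison, 33 of the rodent lineage and 93 older ones shared among mammals. At induction the median log2 fold change between the lines was 0.27 over the rodent families, 16 of which were called higher and 0 lower. It was -0.10 over the mammalian families, 8 of which were called higher and 14 lower. Of all families 25.5% were called higher and 21.8% lower at induction. At 12 h the medians were 1.00 over L1Md, 0.63 over the rodent and 0.16 over the mammalian families. Called higher were 6 of 6, 33 of 33 and 30 of 93, and called lower 0, 0 and 2. Of all families 54.3% were called higher and 8.71% lower at 12 h. At 24 h the medians were 0.64, 0.36 and 0.04, with 6 of 6, 25 of 33 and 8 of 93 higher and 0, 0 and 1 lower. Of all families 38.8% were called higher and 3.02% lower at 24 h. The medians thus fell from the youngest to the oldest class at these time points, without a test between classes. The same order stood before induction at smaller values (0.17, 0.05 and 0.01), with 0 families called in each of the classes. It is therefore not particular to the response. Within the L1Md class the largest change from induction on was that of L1Md_F, one of the older F families.

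L1Md_F was not the L1 family with the strongest response. It ranked 6 of 132 at induction and 5 at 12 h, and the rodent family L1VL1 rose by 1.39 ± 0.17 at induction and by 1.87 ± 0.17 at 12 h. L1VL4, also of the rodent lineage, rose by 1.01 ± 0.16 and 1.31 ± 0.16. Among the mammalian families L1M3c, with a mean of 315 normalised counts, rose by 1.46 ± 0.20 and 2.23 ± 0.20. The other 5 L1Md families ranked 13 to 36 at induction and 7 to 23 at 12 h. As a share of all L1 counts, the L1Md families held 13.1% to 15.1% in MSR-dCas9-Control libraries, 14.7% to 15.6% in uninduced MSR-dCas9-Activator libraries and 15.6% to 19.2% in the others of that line.

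**Figure D5:**
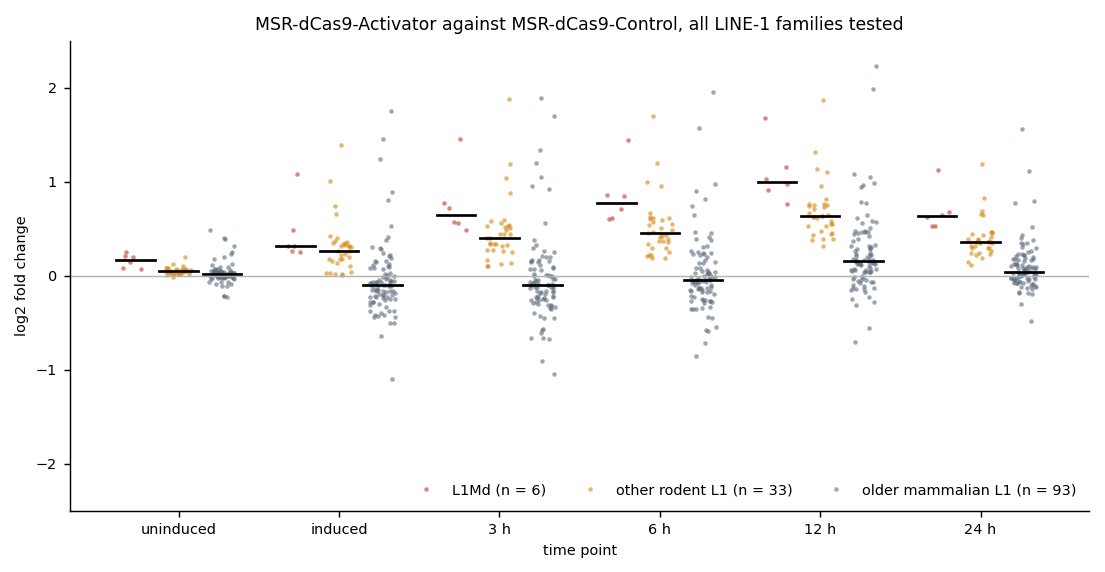
Log2 fold change (y axis, drawn from -2.5 to 2.5) between the lines at each time point (x axis) for every L1 family tested (points), by class (colours), with class medians (bars); 6 points lie off the scale. At 12 h the class medians were 1.00 for L1Md, 0.63 for other rodent L1 and 0.16 for older mammalian L1.

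The repeat families most like the L1Md families over the 36 libraries were ranked by Pearson correlation of log2 normalised counts with the mean profile of the 6, among 1167 other families with a mean of at least 100 counts. The closest were L1_Mus2 (r = 0.985), the LTR element RMER19C (0.984), Lx5 (0.983), the LTR element RLTR20D (0.983) and Lx3B (0.982). These libraries share their time course and scaling, so high values are common. Between the members themselves r ran from 0.889 (L1Md_F with L1Md_Gf) to 0.988 (L1Md_A with L1Md_T), among the pairs that include L1Md_A, L1Md_T or L1Md_F. Correlation with GSAT_MM was highest for L1Md_F (r = 0.946) and lowest for L1Md_Gf (0.831), over the same 36 libraries. GSAT_MM was low in the 21 MSR-dCas9-Control and uninduced MSR-dCas9-Activator libraries and high in the other 15. How far this division alone gives these values was not tested.

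Genes known to act on L1 were examined next, in 6 lists with 66 genes, all tested with edgeR among 28542 genes. Before induction edgeR called 0 of 66, where 0.862% of all genes were called higher and 0.354% lower. At an unadjusted p under 0.05 there were 14 of the 66, and the share of all genes at that limit was not counted. The median log2 fold change before induction was -0.11 over the 66 and 0.03 over all genes. How much of the later lower calls was there before induction was not tested. At induction 5 were higher and 27 lower, where 31.6% of all genes were higher and 25.8% lower. The counts were 11 higher and 28 lower 3 h after removal (39.3% and 31.7% of all genes) and 12 and 32 after 6 h (41.1% and 33.3%). They were 12 and 39 after 12 h (42.2% and 33.1%), and 10 and 35 after 24 h (36.4% and 26.3%). The lists thus held a larger share of lower calls than all genes did, as a description.

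The 6 transcription factors listed as activators of L1 promoters were all lower at induction, where 25.8% of all genes were called lower. Whether they bind the promoters of the L1Md families in these cells was not measured. Myc, a growth-promoting transcription factor, fell by 3.11 ± 0.26 on the log2 scale, from 9156 ± 419 normalised counts in the induced MSR-dCas9-Control line to 1074 ± 446 (SD, n = 3) in the MSR-dCas9-Activator line. Tead4, a transcription factor of the Hippo pathway, fell by 1.68 ± 0.23 and Runx3 by 1.19 ± 0.19. At 24 h only Sp1 (-0.47 ± 0.15) and Sp3 (-0.26 ± 0.11) were called lower, where 26.3% of all genes were.

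Of 15 genes of H3K9 methylation and the HUSH complex, which silences L1, 1 was higher and 7 lower at induction. At 24 h 3 were higher and 8 lower. Over all genes 31.6% were higher and 25.8% lower at induction, and 36.4% and 26.3% at 24 h. Setdb1, the H3K9 methyltransferase that silences retroelements, had 4130.1 ± 226 normalised counts in the induced MSR-dCas9-Control line and 2109 ± 311 in the MSR-dCas9-Activator line (log2 fold change -0.98 ± 0.15). Suv39h2 and Suv39h1, which methylate H3K9 at pericentromeres, fell by 0.67 ± 0.10 and 0.62 ± 0.08. At 24 h the heterochromatin protein genes Cbx3 (-1.17 ± 0.12) and Cbx5 (-1.11 ± 0.10) were lower, whereas Morc2a, a partner of HUSH, was higher (1.10 ± 0.10). Among the HUSH genes Fam208a was higher as well (1.04 ± 0.13). Mphosph8 (-0.18 ± 0.10, edgeR adjusted p = 0.128) and Pphln1 (-0.19 ± 0.11, edgeR adjusted p = 0.136) were not called. With mitochondrial scaling Fam208a stayed higher (0.77 ± 0.23) and Pphln1 was lower (-0.43 ± 0.12).

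Of 10 genes of DNA methylation, 1 was higher and 4 lower at induction, where 31.6% of all genes were higher and 25.8% lower. At 24 h 2 were higher and 6 lower, where 36.4% of all genes were higher and 26.3% lower. Dnmt1, the maintenance methyltransferase, had 13095 ± 669 and 13481 ± 1542 normalised counts in the 2 lines at induction but 11178 ± 501 and 4881 ± 203 at 24 h (log2 fold change -1.19 ± 0.10). Uhrf1, which recruits it, was also lower at 24 h (-1.12 ± 0.10). The de novo methyltransferase Dnmt3b (-1.64 ± 0.21) and the demethylating Tet3 (-1.64 ± 0.28) were lower at induction, and Tet1, another TET enzyme, was higher at induction (1.90 ± 0.48) and at 24 h (4.10 ± 0.48), at no more than 186 normalised counts at 24 h. At induction Dnmt1 had a log2 fold change of 0.04 ± 0.10 on the gene scale (edgeR adjusted p = 0.778) and was lower on the mitochondrial scale (-0.32 ± 0.13, edgeR adjusted p = 0.0376).

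Of 13 genes of RNA decay and m6A, 2 were higher and 6 lower at induction, and 2 and 8 at 24 h. The shares over all genes were 31.6% higher and 25.8% lower at induction, and 36.4% and 26.3% at 24 h. The m6A reader Ythdc1 was higher at both (0.66 ± 0.09 and 0.62 ± 0.09), as was the nuclear exosome subunit Exosc10 at induction (0.65 ± 0.11), while Dicer1, which makes small RNAs, was lower at induction (-0.60 ± 0.14). At 24 h Zcchc8 (-0.64 ± 0.07), a subunit of the nuclear exosome targeting complex, and Dgcr8 (-0.62 ± 0.08), the partner of Drosha, were lower.

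Of 12 restriction factors, 0 were higher and 4 lower at induction, where 31.6% of all genes were higher and 25.8% lower. Among the 4 were the exonuclease Trex1 (-1.22 ± 0.26), the cytidine deaminase Apobec3 (-0.82 ± 0.13) and the RNA editor Adar (-0.46 ± 0.13). At 24 h 3 were higher and 7 lower, where 36.4% of all genes were higher and 26.3% lower. Bst2 (1.68 ± 0.34) was higher, as was Adar (0.45 ± 0.13), which had been lower at induction, and Apobec3 was lower (-0.84 ± 0.13). Tex19.1, a germ cell gene that restrains L1 mobility, had 13.4 to 26.5 normalised counts in the MSR-dCas9-Activator line at 24 h and at most 1.41 in the MSR-dCas9-Control line. Of 10 genes whose products join the L1 particle or its integration, Fen1 (0.41 ± 0.15) was the 1 higher call at induction with 0 lower. At 24 h 0 were higher and 4 lower, among them the tubulin Tubb5 (-1.22 ± 0.14), the poly(ADP-ribose) polymerase Parp1 (-0.95 ± 0.11) and the replication clamp Pcna (-0.71 ± 0.11). With mitochondrial scaling the higher calls of Fen1 (0.05 ± 0.14, edgeR adjusted p = 0.791) and Ythdc1 (0.30 ± 0.15, edgeR adjusted p = 0.0885) at induction and of Adar at 24 h (0.19 ± 0.25, edgeR adjusted p = 0.509) were lost. The counts over the 66 genes became 2 higher and 42 lower at induction, where 20% of all genes were called higher and 36.1% lower, and 7 higher and 41 lower at 24 h, where 27.4% were higher and 31.6% lower. This scaling moved the median of all genes from 0.10 to -0.27 at induction, and it stood at -0.21 at 24 h.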

How the data were processed

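The deposited table held raw counts, whole numbers per gene and repeat family, which the authors made by trimming reads of ribosome-depleted stranded libraries with cutadapt, aligning them to GRCm38 with STAR and counting with TEtranscripts. The treatment of reads matching several copies, the release of the annotation and the strand option are not given in the sources used here, and the precision is limited by replicates rather than by depth. The labels do not say more of the replicates than their numbers, and the methods call them biological. The MSR-dCas9-Repressor line was not analysed here. The table held 54842 genes, 1561 repeat families and 1 entry that names neither (0.00326% of counts), which was left out.

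Library sizes and TMM factors came from genes alone. Repeat families kept by filterByExpr (1492) were tested with edgeR 4.0.16 (glmQLFit, robust, glmQLFTest) in R 4.3.3, with 12 groups and the replicate number as block, and genes likewise. P-values were adjusted by Benjamini-Hochberg over all features tested, and the SE of a log2 fold change was taken as its size over the square root of F. DESeq2 1.42.0 and other scalings, filters, call rules and libraries were alternatives.

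The 6 families were those of the name rule. Named besides were GSAT_MM and SYNREP_MM, the 5 families most like the members, and, by the size of called changes at induction and 24 h, up to 3 genes per list and up to 3 L1 families per class. L1_Mus2 and other names come from the table. Members, lists and comparisons were chosen with earlier results of these data known. Endothelial Pecam1 and Tek, Thy1, and the HUSH genes Fam208a, Mphosph8 and Pphln1 were named after their values were seen. No pair of replicates agreed within sampling noise (lowest chi-square per degree of freedom 16.1 over 36 pairs). In data simulated for the 12 h comparison, with fold changes of 2, 200 of 200 changed families were called with 14 false calls among 1476 families. The simulation had the same spread for every family, no replicate effect and known library sizes. Its changed families all had a mean of at least 100 counts. It therefore does not bear on the choice of scaling or on smaller changes.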

Additional observations from a re-analysis of the deposited data

Results flagged for a closer look

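The response of L1Md_F to induction differed between the lines, by 0.946 on the log2 scale, with the MSR-dCas9-Activator line rising more in the direct test of the difference. The change of L1Md_F from the uninduced state to 24 h post-induction differed between the lines by 0.980, and that of L1Md_F3 by 0.595, in the same test.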

How the results depend on the processing

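With scaling to mitochondrial mRNAs, the count of L1Md families called in the MSR-dCas9-Activator line against the MSR-dCas9-Control line was 1 at induction, 3 h, 6 h and 24 h and 2 at 12 h, and the counts were 0 for induction within the MSR-dCas9-Activator line, 0 and 0 for the differences on induction and at 24 h against uninduced, and 1 for 24 h against uninduced within that line. Between the lines this scaling turned L1Md_A (-0.046), L1Md_F2 (-0.095), L1Md_Gf (-0.046) and L1Md_T (-0.11) at induction, L1Md_F2 (-0.089) and L1Md_T (-0.011) at 3 h, and L1Md_F2 (-0.090) and L1Md_Gf (-0.074) at 6 h. On induction within the MSR-dCas9-Activator line it turned L1Md_A (-0.27), L1Md_F2 (-0.33), L1Md_F3 (-0.11), L1Md_Gf (-0.34) and L1Md_T (-0.40). The cause was not tested. DESeq2 size factors gave 6 calls between the lines at induction, 4 on induction in the MSR-dCas9-Activator line and 4 for the difference at 24 h against uninduced, and DESeq2 itself 5 and 4 for the first and the last. Library sizes of genes and repeats together gave 1 for the last. A limit of 0.5 on the log2 fold change gave 1 between the lines at induction, 1 on induction in the MSR-dCas9-Activator line and 0 for its change from induction to 24 h.

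Leaving out single libraries or replicate numbers gave between 1 and 6 calls between the lines at induction, 1 and 5 on induction in the MSR-dCas9-Activator line, 0 and 2 for the difference on induction, 1 and 4 for the difference at 24 h against uninduced, and 0 and 6 from induction to 24 h in the MSR-dCas9-Activator line. L1 regulator genes called before induction ranged from 0 to 2. Values that turned lay between -0.0185 and 0.161 (L1Md_F2, uninduced), -0.0072 and 0.172 (L1Md_F3, uninduced), -0.0065 and 0.289 (L1Md_T on induction) and -0.0289 and 0.423 (L1Md_F from induction to 24 h).

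Replicate numbers were not shown to pair the libraries: between the lines, deviations of same-numbered libraries correlated from -0.00515 to 0.175, over 0.1 in 9 of 18 pairs. The fit without the replicate block gave 3 calls in place of 5 from induction to 24 h in the MSR-dCas9-Activator line and left the other counts of L1Md calls as they were. The fit of the 12 uninduced and induced libraries, both filters on low counts, genes and repeats in a single fit and library sizes without TMM kept every count within 1.5 times. The 3 replicates per group limit what can be told from single-library spread at induction.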
